A study of Mus musculus with 12 samples.

Results

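Short copies of the ERVL family of endogenous retroviruses that lay under m6A intervals were described in RNA from the chromatin-associated fraction of mouse embryonic stem cells. A copy was taken when its row in the repeat table named the family LTR/ERVL, its end minus its start was below 5000 bp, and it shared at least 1 bp with any interval. This gave 1456 copies, out of 93134 LTR/ERVL rows below 5000 bp and 4929385 repeat loci in all. Of these copies, 598 had an edge within 10 kb of an LTR/ERVL row of at least 5000 bp and are called near copies, and 858 had none within that distance and are called isolated. Rows of at least 5000 bp, of which there were 616, are called long copies. The rule used positions only and no difference between groups. However, how the intervals were called and on which libraries is not given in the sources used here, so whether signal in one group helped to choose copies was not tested.

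The cells were E14TG2a, an established mouse embryonic stem cell line, grown with LIF and the inhibitors PD0325901 and CHIR99021 in every group. Libraries read as ΔcIDR come from cells whose Alkbh5 carries a deletion named cIDR, in a series about intrinsically disordered protein regions. KO libraries come from cells without Alkbh5, and WT libraries from wild-type cells. Each group had 2 libraries in the tables. The column names say KI, KO6 and WT, so ΔcIDR was assigned by elimination, and both KO libraries may come from 1 line. Nothing in the labels states that libraries came from separate cultures, so errors and p-values measure the spread between these libraries, which may be technical.

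Alkbh5 removes N6-methyladenosine (m6A), a methyl mark that a METTL3-containing complex places on adenosines of RNA. ERVL elements are ancient retroviral insertions, and the mouse lineage MERVL is known for transcription in the early cleavage embryo and in rare cells of embryonic stem cell cultures. A complete insertion has an internal coding part between a pair of long terminal repeats (LTRs), which carry the promoter and the polyadenylation signal. Recombination between the LTRs of an insertion leaves a single LTR, the most usual remnant of such elements. The tables give neither a subfamily nor a strand nor an LTR label, so copies are described below by length and position. RepeatMasker-style annotation commonly lists the LTRs and the internal part of an insertion as separate rows.

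The 6 libraries held 20922839 to 26267351 reads in repeats, and 52559 to 81061 of these lay in the short ERVL copies. As a share of repeat reads this was 0.251% and 0.270% in ΔcIDR, 0.309% and 0.327% in KO, and 0.268% and 0.247% in WT. The KO libraries thus gave a larger part of their repeat reads to these copies than any other library. The deposited signal is a read number times a factor that makes an m6A-modified spike-in equal in all libraries, and that spike-in had 814 to 1870 reads. A spike-in without m6A had 1729 to 5127 reads, more than the modified one in each library, and the amounts added are not stated. The columns do not say immunoprecipitated or input and were read as immunoprecipitated from the tables' description. With 0 columns read as input, m6A, RNA amount per cell and the number of cells with the transcript cannot be told apart in any difference below.

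Copies of 480 to 500 bp made up the largest group among 8 length classes, with 674 of the 1456 copies. Single lengths stood out, with 295 copies of 491 bp, 205 of 492 bp and 85 of 497 bp. Among all LTR/ERVL rows of 480 to 500 bp, 18.6% lay under an interval, against 0.499% of rows below 200 bp and 1.17% of rows of 400 to 479 bp. Only rows of 2000 to 4999 bp reached a higher share, with 119 of 351, or 33.9%. Of the 674 copies of 480 to 500 bp, 504 were near, while 115 of the 119 copies of 2000 to 4999 bp were isolated. Most near copies were therefore of 480 to 500 bp, and most copies of 2000 to 4999 bp stood apart from long copies.

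**Figure D1:**
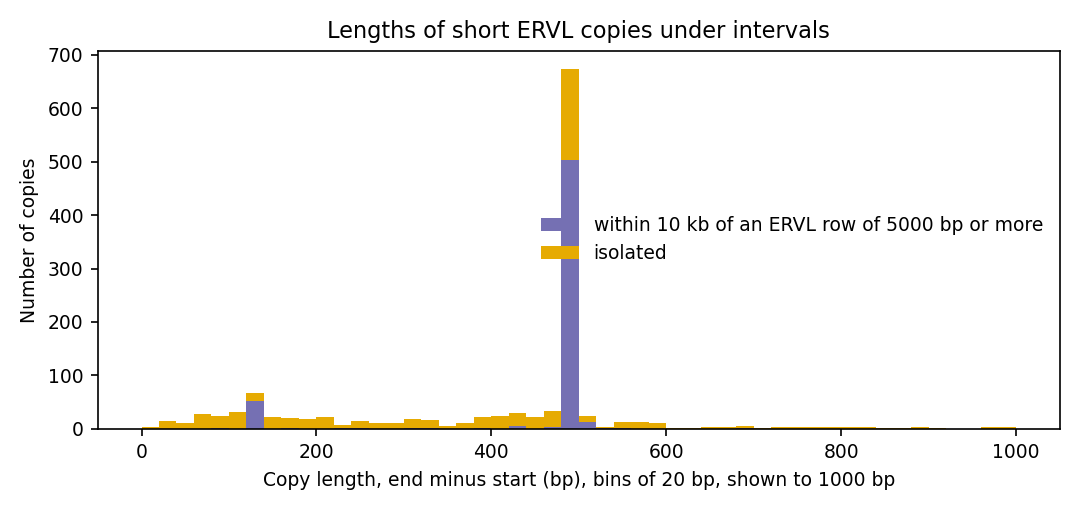
Histogram of the length (end minus start, in bp, bins of 20 bp, shown to 1000 bp) of short ERVL copies under intervals, stacked by near copies (within 10 kb of a long copy) and isolated copies. The peak holds the 674 copies of 480 to 500 bp, of which 504 are near, and a smaller peak of near copies contains the rows of 132 bp.

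The near copies sat at fixed places beside the long ones. A gap of 1 bp to the long copy was found for 354 of them, a gap of 104 to 106 bp for 151, and 55 touched or overlapped it. A row of exactly 132 bp overlapped the long copy in 52 of 53 cases, and 46 of these 52 rows had 0 reads in all 6 libraries. Among the 616 long copies, 611 lay under an interval and 584 had a row of 400 to 600 bp within 200 bp of each end. Both of these flanking rows lay under an interval at 131 long copies, 1 of them at 256 and neither at 197. The left flank in genome order was the single one at 136 long copies and the right flank at 120, so the sides of the genome map were used about evenly.

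The side was uneven, however, relative to the 132 bp row. Of the 584 long copies with both flanks, 212 also had a 132 bp row at 1 end. The flank at that end lay under an interval at 154 of them and the flank at the other end at 45. Where only 1 flank did, it was the flank at the 132 bp end in 110 cases and the other in 1. Read depth differed in the same direction, with a median of 5.08 reads per library in flanks at the 132 bp end and 3.33 in flanks at the other end, over all 212 of each. The long copies themselves had a median of 147 reads per library. Whether the 132 bp row lies at the start or the end of the transcript cannot be read from tables without strand.

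KO against WT asks what loss of the demethylase does to these transcripts. Summed over all 1456 copies, the short ERVL copies took 3086 and 3269 of every 1000000 repeat reads (RPM) in the KO libraries, against 2683 and 2473 in the WT libraries. Both KO values lay above both WT values, a difference of 0.30 ± 0.07 (SE) on the log2 scale, or 1.23-fold. On the deposited spike-in scale the same sum was 159536 and 110711 in KO and 136112 and 132682 in WT, and the libraries overlapped. The 10 copies with the most signal held 24.8% to 32.9% of the signal of all short ERVL copies in a library, and their own sum differed by -0.01 ± 0.07 (SE, log2). Without these 10, the other 1446 copies took 2303 and 2457 RPM in KO and 1844 and 1704 in WT, 0.42 ± 0.07 (SE, log2) or 1.34-fold higher in KO. A two-sided exact permutation test of 2 libraries against 2 cannot go below p = 0.333, so sums and medians are given with standard errors and no p.

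Single copies were set against all repeat loci in the same fit. Of the 1456 copies, 116 had 0 reads in all libraries and 931 reached a mean signal of 10, the minimum for the test. Their median log2 change between KO and WT stood 0.57 ± 0.07 (SE) above the median of all 617957 tested loci, which was itself -0.30 on the deposited scale. Above that all-locus median lay 711 of the 931, or 76.4%. Passing the minimum depends partly on signal in KO, so these counts describe the copies with enough reads and not all copies.

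On the deposited scale limma called 4 of the 931 copies higher in KO and 17 lower (Benjamini-Hochberg adjusted p of 0.05 over all loci), where 0.129% of all tested loci were called higher and 1.63% lower. After each library was centred on its median, 80 were higher and 17 lower, against 0.671% and 1.23% of all tested loci. These calls depend on single libraries. On the deposited scale the total of 21, or 2.26% of tested copies against 1.76% of all loci, fell without either WT library. The share of all loci called fell as well. It was 57 without KO library 1, 55 of them lower, which is 6.12% against 5.96% of all loci and so near the background. It was 11 without KO library 2, or 1.18% against 0.495% of all loci, and 10 without either ΔcIDR library, or 1.07% against 0.959% and 0.958%. On the centred scale these copies and nearly all other loci lost their calls without either 1 of the KO libraries. The 80 higher calls also became fewer without either WT library, and so did the higher calls among all loci.

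The sums in KO differed from those in WT by an amount that depended on copy length. Copies of 480 to 500 bp took 387 and 411 RPM in KO, against 258 and 237 in WT, over all 674 copies. None of these 674 copies was without reads, and their sum was 1.62-fold higher in KO, at 0.69 ± 0.07 (SE, log2). Their deposited signal summed to 20031 and 13933 in KO and 13072 and 12701 in WT, which did not overlap. Copies above 600 bp took 1380 and 1474 in KO and 1005 and 860 in WT, or 0.62 ± 0.12 (SE, log2), 1.53-fold. Copies below 400 bp took 721 and 762 in KO and 767 and 789 in WT, a difference of -0.07 ± 0.04 (SE, log2). As a share of repeat reads, the KO libraries were thus above both WT libraries in the first 2 of these classes. In the third they were below both, by little. On the deposited scale copies above 600 bp summed to 71343 and 49924.5 in KO and 50978 and 46143 in WT, and the libraries overlapped. Copies below 400 bp summed to 37258 and 25803 in KO and 38913 and 42307.5 in WT on that scale, with both KO libraries below both WT libraries.

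**Figure D2:**
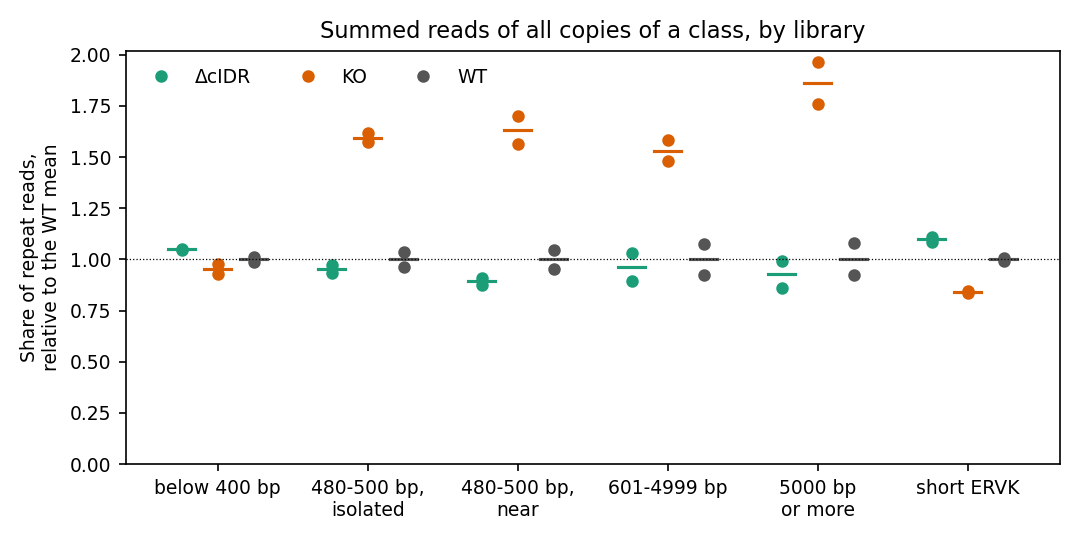
Summed reads of all copies of a class as a share of repeat reads, divided by the mean of the 2 WT libraries (vertical axis, linear from 0), for ΔcIDR, KO and WT libraries (points, with group means as bars). KO points lie well above 1 for copies of 480 to 500 bp, for copies of 601 to 4999 bp and for the 616 long copies, near 1 for copies below 400 bp and below 1 for short ERVK copies.

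In the median over tested copies, those above 600 bp stood ahead of those of 480 to 500 bp. In the sums over all copies the order was the other way, 0.62 ± 0.12 and 0.69 ± 0.07 (SE, log2). Copies above 600 bp, of which 225 of 231 passed the minimum, stood 0.91 ± 0.10 (SE, log2) above all loci, and 93.3% of them lay above the all-locus median. Those of 2000 to 4999 bp, all 119 of which were tested, stood at 0.97 ± 0.11 with 115 above. Copies of 480 to 500 bp were at 0.69 ± 0.11, with 390 of 674 tested and 330 above. Those of 400 to 479 bp were at 0.22 ± 0.10 and those of 501 to 600 bp at 0.38 ± 0.13, while their sums differed by -0.07 ± 0.06 and 0.03 ± 0.12. Below 400 bp the median was -0.07 ± 0.04, with 80 of 177 above. The difference between copies above 600 bp and copies below 400 bp was 0.98 ± 0.13 (SE, log2), larger than the spread between libraries.

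Of the 80 copies called higher in KO on the centred scale, 65 were among the 225 tested copies above 600 bp. Another 6 were among the 390 tested of 480 to 500 bp, and 4 among the 177 tested below 400 bp. Of all tested loci 0.671% were called higher. The 17 called lower included 13 of the 177 below 400 bp and 0 of the 225 above 600 bp, against 1.23% of all tested loci. Depth moved with length, from a median of 2.83 reads per library and copy below 400 bp, through 5.00 at 480 to 500 bp, to 54.2 above 600 bp, so single short copies could be called only for large differences. Leaving out 1 KO or WT library in turn kept the median between 0.81 and 1.00 above 600 bp and between 0.57 and 0.82 at 480 to 500 bp.

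**Figure D3:**
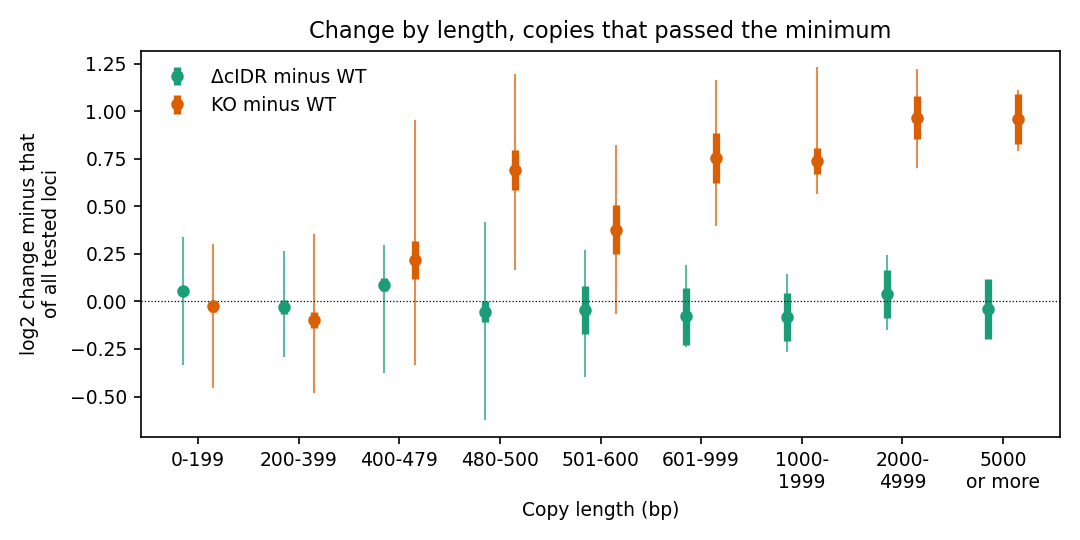
Median log2 change against WT minus that of all tested loci (points), with its standard error over libraries (thick bars) and the quartiles over copies (thin lines), for tested copies by length class, in ΔcIDR and KO. KO stands at 0.69 at 480 to 500 bp and 0.97 at 2000 to 4999 bp, next to 0.96 in long copies, while ΔcIDR lies between -0.08 and 0.09.

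Near copies were set against isolated ones as the second split. Over all 598 near copies, KO libraries took 284 and 300.2 RPM, against 184 and 168 in WT libraries, 0.73 ± 0.08 (SE, log2) or 1.66-fold higher. Over all 858 isolated copies they took 2802 and 2969 in KO and 2498 and 2305 in WT, 0.27 ± 0.07 (SE, log2) or 1.20-fold higher. Among tested copies the near median exceeded the isolated one by 0.24 ± 0.06 (SE, log2), with 271 of 317 near and 440 of 614 isolated copies above the all-locus median. The groups differ in length, however, since 504 of the 598 near copies but 170 of the 858 isolated ones were of 480 to 500 bp.

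Within 400 to 600 bp the near sum was 0.72 ± 0.09 higher in KO and the isolated sum 0.09 ± 0.08 higher (SE, log2). The tested medians of these copies differed by 0.27 ± 0.02 (SE, log2). Within 480 to 500 bp the gap was smaller. Near copies of this length took 217 and 236 RPM in KO and 145 and 133 in WT, 0.71 ± 0.09 (SE, log2). Isolated copies of this length took 170 and 175 in KO and 112 and 104 in WT, 0.67 ± 0.06 (SE, log2). Their tested medians were 0.71 ± 0.11 and 0.61 ± 0.09, a difference of 0.10 ± 0.04 (SE, log2), where the split over all lengths gave 0.24. One isolated copy of 480 bp on chromosome 14, described below, weighed on the isolated sum, which was 0.49 ± 0.04 without it.

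The neighbourhood was divided further. Copies of 480 to 500 bp within 10 bp of a long copy had a tested median of 0.73, and other near copies 0.69. Isolated copies within 10 kb of an ERVL row of 1000 to 4999 bp were at 0.61, and the 99 with no such row were also at 0.61. Of those 99, 51 were tested and 37 lay above the all-locus median. Their sum was 0.67 ± 0.06 (SE, log2), or 0.42 ± 0.05 without the copy on chromosome 14. Copies of this length with no large ERVL fragment within 10 kb therefore also had a higher sum in both KO libraries than in both WT libraries. These 4 neighbourhoods were chosen after the data had been seen.

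Rows of 480 to 500 bp outside intervals gave a measure on rows the selection left out. The 561 such rows near a long copy took 158 and 165 RPM in KO and 135 and 124 in WT, 0.32 ± 0.07 (SE, log2). The 2384 isolated ones took 1405 and 1383 in KO and 1415 and 1359 in WT, 0.01 ± 0.03 (SE, log2). Outside intervals both KO libraries thus exceeded both WT libraries near long copies, while the isolated sums overlapped. At the ends of long copies, all 212 flanks at the 132 bp end took 104 and 104 in KO and 68.0 and 61.7 in WT, 0.69 ± 0.07 (SE, log2), whether under an interval or not. The 212 flanks at the other end took 63.8 and 69.5 in KO and 52.3 and 47.6 in WT, 0.42 ± 0.09 (SE, log2). Among flanks under an interval this lower value was not seen. Their sums differed by 0.68 ± 0.08 over 154 at the 132 bp end and by 0.77 ± 0.14 over 45 at the other end (SE, log2). The handling of reads that map to several near-identical copies is not given in the sources used here, so reads may have been moved between a flank, its partner at the other end and copies elsewhere.

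The split at 400 to 600 bp gave sides that differed little. Over all 848 copies of this length, KO libraries took 985 and 1033 RPM and WT libraries 911 and 824, 0.22 ± 0.08 (SE, log2). The 608 copies of other lengths took 2101 and 2236 in KO and 1772 and 1649 in WT, 0.34 ± 0.07 (SE, log2). Their tested medians, 0.59 and 0.55, differed by 0.04 ± 0.09 (SE, log2), less than the spread between libraries. Both sides mixed classes that differed, as the copies of other lengths joined those above 600 bp with those below 400 bp. Within 400 to 600 bp, the copies of 480 to 500 bp exceeded the rest by 0.40 ± 0.04 (SE, log2) in the tested median.

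Other retroviral families under intervals were measured in the same way. Short ERVK copies, 4082 in all, took 6620 and 6705 RPM in KO and 7865 and 7957 in WT, -0.25 ± 0.01 (SE, log2). The 3513 MaLR copies, an ERVL-related family, differed by -0.06 ± 0.06 and the 483 short ERV1 copies by -0.27 ± 0.05. Long ERVL copies took 6705 and 7485 in KO and 4110 and 3517 in WT, 0.90 ± 0.14 (SE, log2). In the tested median, short ERVL copies exceeded short ERVK copies by 0.80 ± 0.08 and MaLR copies by 0.64 ± 0.06 (SE, log2), and long ERVL copies exceeded the short ones by 0.39 ± 0.06. Short ERVL rows outside intervals differed between KO and WT by 0.07 ± 0.02 in their sum.

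ΔcIDR against WT asks whether removing the cIDR alters the same copies. All 1456 copies together took 2512 and 2700 RPM in ΔcIDR, against 2683 and 2473 in WT, 0.02 ± 0.08 (SE, log2), and the libraries overlapped. Copies of 480 to 500 bp took 227 and 227 in ΔcIDR and 258 and 237 in WT, -0.12 ± 0.06 (SE, log2), while copies above 600 bp differed by -0.05 ± 0.15. The tested median stood -0.02 ± 0.07 from that of all loci. On the deposited scale 1 of the 931 tested copies was called higher and 1 lower (limma, adjusted p 0.05), where 0.0341% and 0.0176% of all loci were called. After centring 0 were called higher and 1 lower, against 0.0273% and 0.0304% of all loci.

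Set against KO, the ΔcIDR libraries gave a smaller share of their repeat reads to these copies, while their deposited signal was larger. Summed over all copies, that signal was 175240 and 187007 in ΔcIDR and 159536 and 110711 in KO. The difference in share was -0.29 ± 0.07 over all copies and -0.81 ± 0.04 over copies of 480 to 500 bp (SE, log2), and the tested median stood at -0.64 ± 0.06 relative to all loci. The share of all short ERVL copies lay below both KO libraries in both ΔcIDR libraries, and so did the share of copies of 480 to 500 bp. On the deposited scale limma called 82 copies higher and 18 lower in ΔcIDR, against 13.0% and 0.656% of all tested loci. After centring it called 43 higher and 137 lower, against 3.85% and 2.84%, so the balance of calls turned with the scale. KO and ΔcIDR were each compared with the same WT libraries, so their changes against WT are not independent.

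Among single copies, the longest of those most increased in KO was a 4548 bp copy at chr13:120595472-120600020 (GRCm39), isolated from any long copy by 263260 bp. Its signal was 1844 and 1353 in KO, 627 and 761 in ΔcIDR, and 646 and 515 in WT, with KO above all other libraries. The change against WT was 1.45 ± 0.32 (SE, log2), with an adjusted p of 0.00156 in limma. A 486 bp copy at chr13:120601482-120601968 lies 1462 bp beyond its end, and had 140 and 90.0 in KO, 6.67 and 25.6 in ΔcIDR, and 18.5 and 29.4 in WT. This copy was higher in KO by 2.17 ± 0.56 (SE, log2; limma adjusted p 0.0119). A long fragment and the 486 bp row beside it thus changed the same way.

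The near copy at chr6:61761955-61762270, 315 bp long and 230 bp from a long copy, had 175 and 100.1 in KO, 23.3 and 57.5 in ΔcIDR, and 25.5 and 34.4 in WT. It was the only near copy called higher on the deposited scale, by 2.09 ± 0.49 (SE, log2; limma adjusted p 0.00443). The fourth copy called higher, 434 bp long at chrY:21799189-21799623, had 30 and 35 reads in KO, 10 and 18 in ΔcIDR, and 2 and 7 in WT. Its change was 2.33 ± 0.58 (SE, log2; limma adjusted p 0.00884) and rests on few reads.

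The isolated copy with the most reads among those of 480 to 500 bp was at chr14:63730450-63730930. It had 1854 and 1660 reads in KO, 770 and 740 in ΔcIDR, and 852 and 724 in WT. In deposited signal it had 3649 and 2409 in KO, 2567 and 2366 in ΔcIDR, and 1973 and 1777 in WT. The difference between KO and WT of 0.66 ± 0.30 (SE, log2) had an adjusted p of 0.30 in limma on the deposited scale and of 0.000117 after centring. Neither of another pair of high-signal copies was called between KO and WT on the deposited scale. The 3413 bp copy at chr17:45747528-45750941, among the highest of all, had 7992 and 5048 in KO, 8946 and 11163 in ΔcIDR and 9006 and 7573 in WT (KO against WT -0.38 ± 0.29, SE, log2; limma adjusted p 0.638). The 576 bp copy at chr18:84952809-84953385 had 5871 and 3646 in KO, 8552 and 10258 in ΔcIDR and 6641 and 5990 in WT (KO against WT -0.45 ± 0.29, SE, log2; limma adjusted p 0.551).

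All copies named as lower in KO were isolated. The 105 bp copy at chr13:57674384-57674489 had 33.5 and 16.0 in KO, 187 and 153 in ΔcIDR, and 111 and 106 in WT, a change of -2.13 ± 0.45 (SE, log2; limma adjusted p 0.000958). The 264 bp copy at chr8:67508829-67509093 had 27.6 and 4.35 in KO, 76.7 and 89.5 in ΔcIDR, and 90.3 and 76.1 in WT, a change of -2.63 ± 0.52 (limma adjusted p 0.000186). At both copies KO lay below every other library. A 591 bp copy at chr5:112798993-112799584 changed by -1.81 ± 0.44 and a 31 bp copy at chr17:34772826-34772857 by -1.93 ± 0.43, with limma adjusted p of 0.00733 and 0.00181. A 394 bp copy at chr10:66805518-66805912 had 0 reads in both KO libraries, 27 and 18 in ΔcIDR and 17 and 4 in WT, and no fold is given for it.

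A pair of copies set ΔcIDR apart from both other groups. The 287 bp copy at chr10:108278380-108278667, 33 bp from an ERVL row of 1000 to 4999 bp, had 5 and 9 reads in ΔcIDR, 140 and 156 in KO, and 54 and 44 in WT. In signal these were 16.7 and 28.8 in ΔcIDR, 276 and 226 in KO, and 125 and 108 in WT, and the groups did not overlap. Its change in ΔcIDR was -2.30 ± 0.44 against WT (SE, log2; limma adjusted p 0.00162) and -3.39 ± 0.44 against KO (limma adjusted p 1.54e-11). The single copy called higher in ΔcIDR than in WT, 466 bp at chr19:5825080-5825546, had 156 and 7 reads in ΔcIDR, 2 and 2 in KO and 2 and 1 in WT. It was also called higher in ΔcIDR than in KO, but most of its ΔcIDR reads came from library 1. In signal it had 520 and 22.4 in ΔcIDR, 3.94 and 2.90 in KO and 4.63 and 2.45 in WT. It thus reached the minimum of 10 only through ΔcIDR. After centring it was not called against WT (limma adjusted p 0.191). Lack of overlap between groups was a condition for naming either copy, so it adds no evidence.

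**Figure D4:**
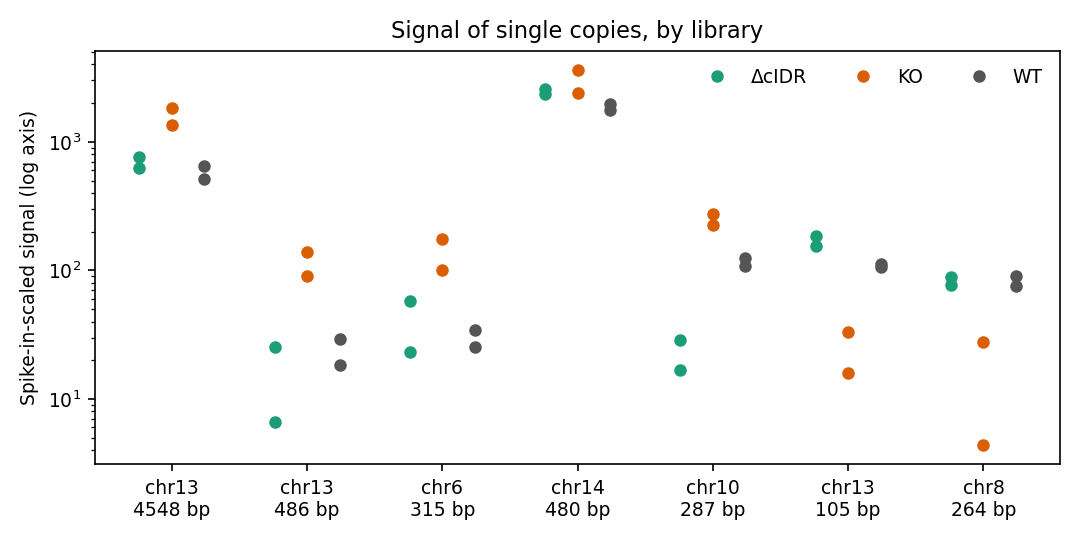
Deposited spike-in-scaled signal (vertical log axis) of 7 single copies in the ΔcIDR, KO and WT libraries (1 point per library), labelled by chromosome and length. KO points lie highest in the first 5 copies, apart from 1 overlap with ΔcIDR at the 480 bp copy, and lowest in the last 2, and ΔcIDR points lie lowest at the 287 bp copy on chromosome 10.

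The intervals over these copies were counted separately by the authors, from partly the same reads. There were 1509 intervals over short ERVL copies, 912 of them with enough signal to be tested. Their median log2 change in KO stood 0.58 above that of all 37759 tested intervals, and 701 of the 912, or 76.9%, lay above it. With the 56 intervals that also overlapped a long copy left out, the median was 0.54 over 858 tested intervals. On the deposited scale limma called 27 higher and 44 lower in KO (adjusted p 0.05), against 0.985% and 10.0% of all tested intervals, and after centring 142 higher and 30 lower, against 4.68% and 7.28%. The number of these 71 calls fell without WT library 2, KO library 2 or WT library 1, and rose without KO library 1. The share of all intervals called in those fits is not given here, so no background stands beside these changes. In ΔcIDR the median over the 912 stood at -0.18 relative to all intervals, and 291 of the 912, or 31.9%, lay above the all-interval median. The tested copies stood at -0.02 in ΔcIDR, with 452 of 931, or 48.5%, above the all-locus median. Intervals and copies thus differed in ΔcIDR, and the cause was not tested.

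The 3 copies just under it, of 4872, 4897 and 4900 bp, stood 0.71, 0.97 and 0.62 (log2) above the change of all loci in KO against WT. The 3 rows just over it under intervals, of 5081, 5100 and 5129 bp, stood at 0.87, 0.26 and 0.68. The short ERVL copies under intervals numbered up to 109 on one chromosome, chromosome 2, and the share of short ERVL rows under an interval was 2.26% on chromosome 13, where 101 of 4477 were.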

How the data were processed

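Both tables were deposited as signal per feature, for 6 of the 12 samples of the series. The submitters' processing notes list GRCm39 as the assembly, and the tools bedtools, featureCounts, MACS2, Picard, SAMtools, HISAT2 and fastp, with no version, role or order. Dividing the authors' signal by 1 factor per library gave whole reads (100% of values, within 1e-06), and 1 read was worth 1.45 to 3.33 units in the repeat table. Read totals were recovered from these factors and cover counting error only. Of columns in the tables, 0 went unused.

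Members, length classes and lists were chosen with earlier results of these data known. Gaps run from edge to edge, and whether starts count from 0 or 1 is not stated. The repeat table was fitted whole with limma 3.58.1 in R 4.3.3, as log2 of signal plus 2 for loci with a mean signal of at least 10, with a trend in the prior variance, all 6 libraries and Benjamini-Hochberg adjustment. Folds on this scale understate changes of copies near 0. Intervals used log2 of signal plus 0.5 and a minimum of 1. A relative change is a median over tested copies minus that over all tested loci. A sum is relative to all repeat reads, so it does not depend on the spike-in factor. The factor largely cancels in a relative change, but the pseudocount and the minimum are set in deposited signal and so depend on it. Standard errors come from the 2 libraries a group. edgeR 4.0.16 (quasi-likelihood) on the recovered reads of the repeat table called 22 copies in KO against WT, 9 higher and 13 lower. These were 2.36% of tested copies, against 1.67% of all loci. The fits were tested on simulated data. Sums were made in Python 3.11.15 (pandas 2.3.3, numpy 2.4.6) and figures with matplotlib 3.10.9.

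Named copies are a selection of the 3 with the highest mean signal in each of 4 classes (near or isolated, 400 to 600 bp or other) and per comparison, the 5 largest changes each way with an adjusted p below 0.05 and no overlap of libraries. Same-numbered libraries did not deviate together (correlation over 617957 loci of 0.0169 for KO with WT, -0.0596 for ΔcIDR with WT and -0.0249 for ΔcIDR with KO), and numbers in the columns are used as names only. No sequences or gene names are given, since the reference at hand is on another assembly, and cell type markers, Alkbh5 and input were not analysed here.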

Additional observations from a re-analysis of the deposited data

How the results depend on the processing

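Calls depended on scale, minimum and single libraries more than medians did. Shares of all loci called stand in brackets where they are given. Ranges with 1 library left out carry no such share here, so they are not set against a background. The share of all loci at an unadjusted p under 0.05 is not given, so those counts have no background either. Against 21 copies called in KO against WT (1.76%), 97 of 931 were called with each library centred (1.90%), 118 of 948 on the ERCC scale (2.11%), 108 of 941 on the scale of repeat reads outside intervals (2.15%), 125 of 931 by edgeR with TMM factors (2.65%), 12 of the 589 copies at least 50% under intervals (1.76%) and 0 with no minimum (186 at an unadjusted p under 0.05). Leaving out 1 library gave 0 to 57. For ΔcIDR against WT, 2 calls became 1 at a minimum of 40, centred, on the outside scale or at 50% under intervals, and 0 with no minimum (105 at an unadjusted p under 0.05; 2 by edgeR), with 1 to 9 when 1 library was left out. In ΔcIDR against WT, 0.0518% of all loci were called in the main fit, beside 0.215% of tested copies. The same 0.0518% is the background at 50% under intervals. The share of all loci was 0.0866% at a minimum of 40, 0.0578% centred and 0.0538% on the outside scale. It was 0.0497% by edgeR on the deposited scale and 5.74e-05% with no minimum. For ΔcIDR against KO, the 100 calls of 931 were fewer than the share of all loci (10.7% against 13.6%). They became 10 with no minimum (0.236%), 180 centred (6.69%), 291 on the ERCC scale (11.5%), 197 on the outside scale (6.99%), 202 with TMM factors (7.49%) and 63 at 50% (13.6%), with 34 to 137 when 1 library was left out. The 71 intervals called became 172 centred and 8 to 95 when 1 library was left out. With the replicate block, 15 (1.19%), 2 (0.0261%) and 80 (10.8%) copies were called in these comparisons of copies. The labels do not say whether the numbers pair the libraries. The 80 were 8.59% of tested copies, below the share of all loci.

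The relative median in KO against WT, 0.57, was 0.45 with a pseudocount of 10 or a minimum of 40 and 0.38 with no minimum, and 0.51 to 0.61 without 1 library. In ΔcIDR against WT, -0.02 turned to 0.13 with no minimum and to 0.059 without WT library 1 (without 1 library, -0.059 to 0.059). In ΔcIDR against KO, -0.64 was -0.51 with a pseudocount of 10, -0.55 at a minimum of 40, -0.37 with no minimum and -0.73 at 50%, and -0.70 to -0.59 without 1 library. Near minus isolated, 0.24, was 0.13 with a pseudocount of 10, 0.42 at a minimum of 40 and 0.10 within 480 to 500 bp, and 0.18 to 0.34 without 1 library. Lengths of 400 to 600 bp minus others, 0.04, was -0.40 at a minimum of 40, -0.088 for 300 to 700 bp, -0.32 against copies above 600 bp and 0.65 against copies below 400 bp, and -0.012 to 0.17 without 1 library. The cause of these shifts was not tested, apart from the last 2, which compare with other copies by construction. The copy at chr17:45751112-45752928, -0.01 from all loci in KO against WT, was at 0.0018 without KO library 1, and -0.16 to 0.18 without 1 library. Copies of 480 to 500 bp had a median of 5.00 reads per library, which limits calls on single copies.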

Other observations

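Several near copies often shared a long copy. Each near copy was assigned to its nearest long copy, which gave 409 of the 616 long copies at least 1, 240 of them 1, 151 of them 2 and 18 of them 3 or more. Near copies of 490 to 492 bp and of 497 to 498 bp, around the most frequent lengths, both had higher sums in KO. The 396 near copies of 490 to 492 bp took 170 and 180 RPM in KO and 116 and 106 in WT, 0.66 ± 0.08 (SE, log2). The 96 near copies of 497 to 498 bp took 39.3 and 47.4 in KO and 25.2 and 20.9 in WT, 0.91 ± 0.19 (SE, log2). Among isolated copies the sums differed by 0.40 ± 0.05 over 126 copies of 490 to 492 bp and by 0.33 ± 0.06 over 23 copies of 497 to 498 bp. These length groups were chosen after the data had been seen, and differences between them were not tested.

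The near copy at chr4:53343710-53343790, 80 bp long, had 410 and 486 in ΔcIDR and 136 and 100.1 in KO, with 171 and 199 in WT. It was higher in ΔcIDR than in KO by 1.92 ± 0.37 (SE, log2; limma adjusted p 3.18e-05).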
